A study of Mus musculus with 18 samples.

Results

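The genes described here are 9 genes of bone morphogenetic protein (BMP) and transforming growth factor-β (TGF-β) signaling, Id1, Id2, Id3, Id4, Smad6, Smad7, Smad3, Bambi and Skil, found by symbol among the 43629 genes of the count table. They were measured by 3′ mRNA sequencing (QuantSeq, which reads 1 tag near the 3′ end of each transcript) in 18 libraries of AT3 cells, a mouse mammary carcinoma cell line that the study uses as a model of triple-negative breast cancer. Cells were pre-treated with DMSO vehicle, A-241 at 250 nM or A-485 at 1000 nM, which are inhibitors of the acetyltransferase activity of P300 and CBP, for 1 h. Recombinant mouse interferon gamma (IFNγ) at 1 ng/mL or its vehicle was then present for 2 h more, so that every library was collected 3 h after the inhibitor or DMSO was added. The 6 conditions, with 3 libraries each, are called DMSO, A-241, A-485, IFNγ, A-241+IFNγ and A-485+IFNγ. The labels call the triplicates biological, whereas the series design and the study's methods call them technical, so p values measure the spread between libraries, which may be technical. All libraries came from this 1 cell line, grown under the same conditions.

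BMP and TGF-β ligands bind receptor kinases that phosphorylate SMAD proteins, which enter the nucleus with SMAD4 and recruit coactivators, P300 and CBP among them. The ID genes are rapid targets of the BMP branch, and their proteins lack a DNA-binding region and hold E proteins away from DNA. SMAD6 and SMAD7 are inhibitory SMADs that are made in response to the pathway and limit it, BAMBI is a receptor-like protein without a kinase that also limits it, SKIL (SnoN) is a co-repressor of SMAD complexes, and SMAD3 carries the signal of TGF-β and activin.

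On GRCm38 all of these are protein-coding genes. Id1 lies on chromosome 2 from 152736251 to 152737410, Id2 on chromosome 12 from 25093799 to 25097140, Id3 on chromosome 4 from 136143497 to 136145755 and Id4 on chromosome 13 from 48261228 to 48266026. Smad3 and Smad6 are both on chromosome 9, from 63646767 to 63757994 and from 63953076 to 64022059. Skil is on chromosome 3 from 31095058 to 31122577, and the places of Smad7 and Bambi are given with their values. Only Id4 of these genes shares exon bases with other annotated genes, both on the opposite strand. One of them, A330033J07Rik, had at most 1 count in any library, and the other, Gm49291, was not found by name in the count table.

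RefSeq start sites gave a window of 250 bases upstream for 5 of the 9 genes (Id2, Id3, Id4, Smad3 and Smad6). The starts of Id2 and Id3 lie 1048 and 325 bases inside the annotated gene, so their windows are not upstream of its first base. The sequences of Id2, Id4 and Smad3 are shown because these are the genes whose counts were lower with A-241+IFNγ than with IFNγ at the threshold used below. They are given 5′ to 3′ on the strand of the gene, from GRCm38.p6, without bases of annotated exons, and capitals mark matches, on either strand, to GGCGCC (a sequence bound by BMP-responsive SMADs) or GGGCGG (the GC box of SP and KLF factors). Id2 is read from the minus strand at chr12:25096254-25096342, the 89 bases of its window that lie outside annotated exons, Id4 from the plus strand at chr13:48260866-48261115 and Smad3 from the minus strand at chr9:63757995-63758244.
Id2: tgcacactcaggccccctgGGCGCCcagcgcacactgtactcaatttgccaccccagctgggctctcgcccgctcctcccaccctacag
Id4: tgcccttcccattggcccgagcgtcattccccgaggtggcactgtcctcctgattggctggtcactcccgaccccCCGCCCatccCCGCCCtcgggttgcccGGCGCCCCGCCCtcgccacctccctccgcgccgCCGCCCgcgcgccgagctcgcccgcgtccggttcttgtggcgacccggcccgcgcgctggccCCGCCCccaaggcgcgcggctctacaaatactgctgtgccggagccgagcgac
Smad3: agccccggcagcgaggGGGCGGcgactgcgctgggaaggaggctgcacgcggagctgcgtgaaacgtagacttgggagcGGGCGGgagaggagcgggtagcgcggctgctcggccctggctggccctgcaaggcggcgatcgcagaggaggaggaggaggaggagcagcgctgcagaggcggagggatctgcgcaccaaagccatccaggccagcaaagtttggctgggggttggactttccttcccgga

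The windows of Id2 and Id4 each held 1 match to GGCGCC, which 9.59% of the 32851 annotated windows of the same length held. In Id4 it directly adjoined 1 of 5 matches to GGGCGG. All 5 windows held GGGCGG, 1 time in Id2, among the bases not printed, 2 times each in Id3 and Smad3 and 4 times in Smad6, against 32.7% of all windows. The short SMAD sequence CAGAC was found only in the Id3 window of the 5, 2 times, and in 42.2% of all windows. TATAAA (12.4% of windows) and TGACGT (6.47%) were in none of the 5. A match is a run of letters and was not tested for binding.

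Levels below are in CPM, counts relative to the size of the library after scaling by TMM factors, and libraries held 3417167 to 7856830 counts. Relative to these totals, before TMM scaling, 3 counts, the limit that a count of 0 allows, stood for 0.382 to 0.878 CPM. On the scaled levels the limit was higher in DMSO replicate 3, where 6 counts of Smad6 stood for 2.07 CPM. Every pair of libraries of 1 condition differed by more than sampling noise. DMSO replicate 3 and IFNγ replicate 2 stood apart from the other libraries of their conditions, with a root mean square deviation over genes of 0.73 and 0.76 (log2) against 0.23 to 0.51 in the other 16. The transcript Gm42418 took 20.1% and 23.0% of their counts and 7.11% to 16.2% elsewhere. The epithelial genes Krt8, Krt18, Epcam and Cdh1 were counted in every library, and Krt19 had at most 1 count. Of these, Krt18 fell from a mean of 171 CPM with DMSO to 95.7 CPM with A-241 (edgeR adjusted p = 0.00186). Adgre1 of macrophages and Cdh5 of endothelium had 0 counts in all libraries, while the summed 6 leukocyte markers reached 2.68 to 19.3 CPM with DMSO, 6.73 to 12.01 CPM with A-241 and 13.0 to 39.7 CPM with A-485. Under IFNγ they reached 5.42 to 34.3 CPM without inhibitor, 3.26 to 29.3 CPM with A-241 and 3.23 to 19.1 CPM with A-485. Mesenchymal markers, of which vimentin made up most, summed to 118 to 209 CPM with DMSO, 90.9 to 95.7 CPM with A-241 and 100 to 127 CPM with A-485, and under IFNγ to 144 to 192, 90.1 to 113 and 116 to 127 CPM in the same order. The part of these markers in the results was not tested. Irf1, a transcription factor gene induced early by IFNγ, was 5.05 higher on the log2 scale with IFNγ than with DMSO. In bulk RNA, fewer cells expressing a gene and less RNA per cell cannot be told apart.

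Of the 9 genes, 8 had enough counts to be tested, and Bambi did not. Differences were tested with the quasi-likelihood test of edgeR in 1 fit of all libraries, p values were adjusted over the 11964 genes tested, and calls were made where the adjusted p was under 0.01. With A-241 compared with DMSO, 2 of the 8 were called lower (Id2 and Id4), where 3.53% of all genes were called so. With A-485 compared with DMSO 1 was called lower (Id4), against 0.619% of all genes. In IFNγ-treated cells 3 were lower with A-241 (Id2, Id4 and Smad3), against 3.54% of all genes, and 2 were lower with A-485 (Id4 and Smad7), against 0.535%. None of the 8 was called higher by edgeR in these 4 comparisons, against 0.827%, 0.0418%, 0.543% and 0.0167% of all genes. Each pair of comparisons with the same control shares its 3 control libraries.

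**Figure D1:**
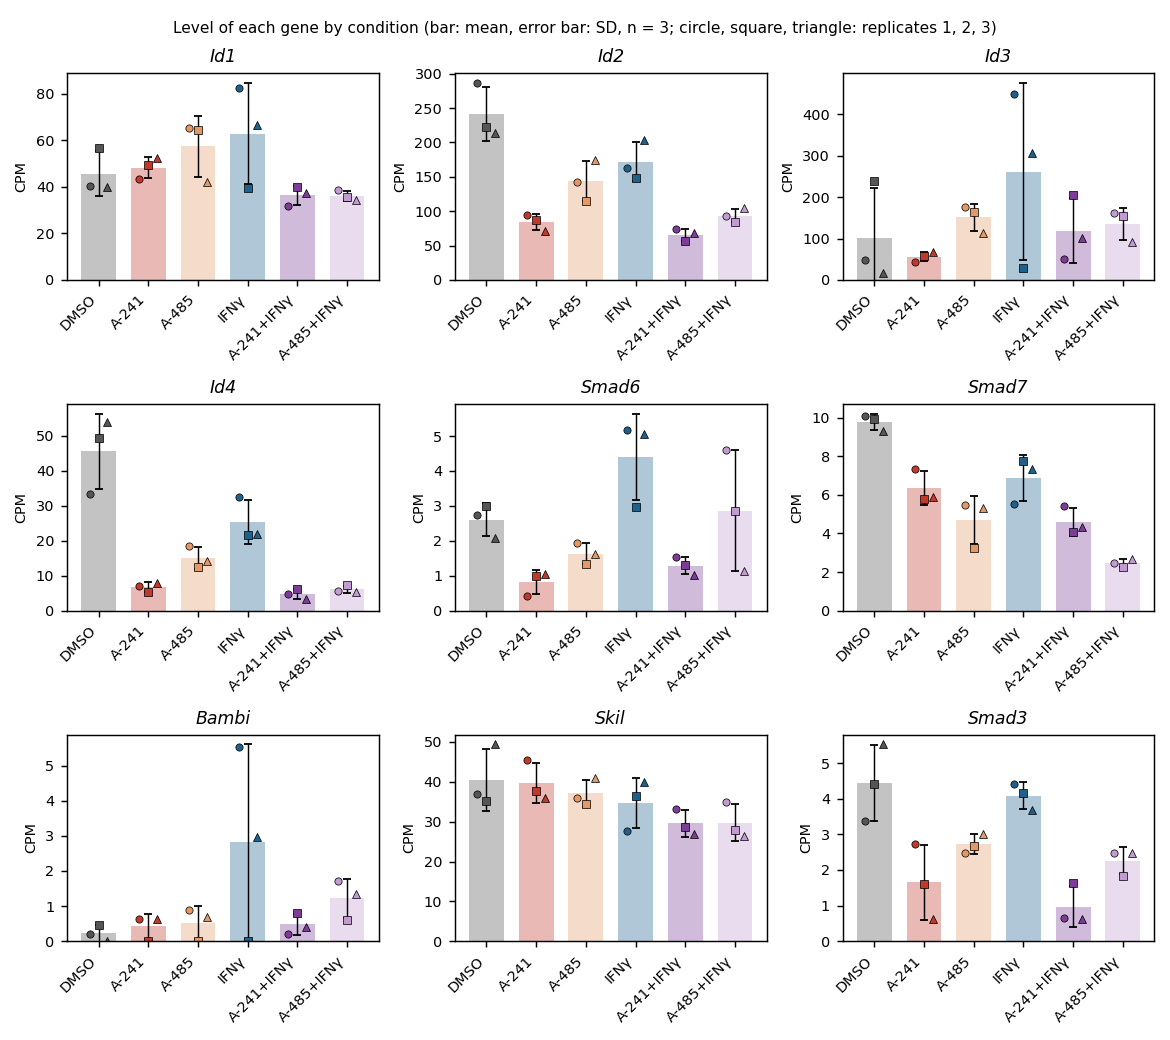
Level of each of the 9 genes in CPM (vertical axis, linear, from 0) in the 6 conditions, with the mean as a bar, the SD over 3 libraries as an error bar (cut at 0 where it would pass below) and the libraries as points. Id2 and Id4 lie lower with A-241 than with DMSO in every library, whereas Id3 ranges from 15.9 to 239 CPM within DMSO alone.

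Among the ID genes, Id4 changed most. It stood at 33.3, 49.3 and 53.9 CPM in the DMSO libraries, at 7.15, 5.21 and 7.80 CPM with A-241 and at 18.5, 12.4 and 14.2 CPM with A-485. Under IFNγ it stood at 32.6, 21.7 and 21.9 CPM, with A-241+IFNγ at 4.79, 6.03 and 3.30 CPM and with A-485+IFNγ at 5.55, 7.33 and 5.32 CPM. Every library with an inhibitor was thus below every library without one. The mean was 45.5 ± 10.8 CPM (SD, n = 3) with DMSO and 6.72 ± 1.35 CPM with A-241, which is 6.74-fold lower, with a log2 fold change of -2.75 (standard error 0.27, 95% interval -3.33 to -2.18, edgeR adjusted p = 8.58e-06). With A-485 Id4 was 3.01-fold lower than with DMSO (log2 fold change -1.59, standard error 0.25, edgeR adjusted p = 0.00314).

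In the presence of IFNγ the Id4 level was 5.36-fold lower with A-241 (log2 fold change -2.42, standard error 0.28, edgeR adjusted p = 3.09e-05). With A-485 it was 4.204-fold lower (log2 fold change -2.07, standard error 0.27, edgeR adjusted p = 0.000699). Both values for A-241 were called with any 1 of the 6 libraries left out, and the change then lay between -2.93 and -2.59 without IFNγ and between -2.65 and -2.19 with it. The call with A-485 alone was lost without DMSO replicate 2 or without any 1 of the A-485 libraries (highest adjusted p = 0.0295, without A-485 replicate 2), and that with A-485+IFNγ was lost without A-485+IFNγ replicate 1 or 3 (highest adjusted p = 0.0108). Without the pair of libraries that stood apart, Id4 was called in all 4 comparisons, with changes of -2.66, -1.49, -2.52 and -2.19 in the order given. In the order of the means, DMSO was followed by IFNγ, A-485, A-241, A-485+IFNγ and A-241+IFNγ, and the libraries of the last 3 overlapped.

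Id2, whose protein restrains differentiation in many tissues, was lower with A-241 too, at a smaller size. Its level was 286, 223 and 214 CPM with DMSO, 94.4, 86.7 and 71.8 CPM with A-241 and 143, 115 and 174 CPM with A-485. In IFNγ-treated cells it was 163, 149 and 204 CPM without inhibitor, 73.7, 56.3 and 67.6 CPM with A-241 and 92.6, 84.3 and 104 CPM with A-485. No library with an inhibitor reached the libraries of its own control. Relative to DMSO, A-241 was associated with a 2.86-fold lower level (log2 fold change -1.51, standard error 0.19, 95% interval -1.93 to -1.10, edgeR adjusted p = 0.000111), and in IFNγ-treated cells the level was 2.61-fold lower (log2 fold change -1.38, standard error 0.19, edgeR adjusted p = 0.000219). Both calls held with any 1 library left out. By mean, DMSO was followed by IFNγ, A-485, A-485+IFNγ, A-241 and A-241+IFNγ, and the libraries of IFNγ and A-485 overlapped, as did those of each pair of neighbors after A-485. The changes with A-485, -0.74 (edgeR adjusted p = 0.0591) and, with IFNγ, -0.88 (0.0282), did not pass the threshold. Without DMSO replicate 3 and IFNγ replicate 2 they were -0.86 (edgeR adjusted p = 0.00593) and -0.98 (0.00216) and passed it.

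Id1 moved little with either inhibitor in the absence of IFNγ. Its libraries held 40.5, 56.7 and 39.7 CPM with DMSO, 43.3, 49.3 and 52.3 CPM with A-241 and 65.5, 64.5 and 42.1 CPM with A-485, and these ranges overlapped. With IFNγ they held 82.3, 39.3 and 66.8 CPM, with A-241+IFNγ 32.0, 40.0 and 37.3 CPM and with A-485+IFNγ 38.5, 35.8 and 34.2 CPM. IFNγ replicate 2, the library rich in Gm42418, was the only IFNγ library within the range of the A-241+IFNγ libraries. The log2 fold changes under IFNγ were -0.79 (standard error 0.24, edgeR adjusted p = 0.0540) with A-241 and -0.80 (standard error 0.24, edgeR adjusted p = 0.108) with A-485, neither of which passed. Without IFNγ replicate 2 the first was -1.03 (edgeR adjusted p = 0.00401). With DMSO replicate 3 left out as well, they were -1.04 and -1.06 and both passed (edgeR adjusted p = 0.000502 and 0.00134).

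For Id3, the range within DMSO and that within IFNγ were each wider than the distance between any pair of condition means. Its DMSO libraries held 48.5, 239 and 15.9 CPM, or 230, 1516 and 46 counts, so that the highest was 15.1 times the lowest. The IFNγ libraries held 448, 29.2 and 305 CPM, a ratio of 15.4. By contrast, the libraries lay between 44.2 and 67.0 CPM with A-241, between 114 and 176 CPM with A-485 and between 90.8 and 160 CPM with A-485+IFNγ, and were 50.5, 204 and 101 CPM with A-241+IFNγ. The lowest library of DMSO and of IFNγ was in each case the one rich in Gm42418. The log2 fold changes with the inhibitors ran from -1.14 to 0.57, with standard errors of 0.82 to 0.83, and none passed (edgeR adjusted p from 0.486 to 0.794).

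The SD of Id3 within conditions, pooled over the 6, was 1.27 on the log2 scale, against a median of 0.36 over all genes tested. It ranked 97 of 11964, and 9 of the 1129 genes with at least its mean CPM. The other members tested had SDs of 0.21 (Skil) to 0.46 (Smad6). Across the 18 libraries, the deviation of Id1 from its condition mean followed that of Id3, with a Pearson r of 0.86 and a Spearman rho of 0.89. For this pair r was 0.86 without the 2 libraries farthest from the median of Id1 and 0.81 without DMSO replicate 3 and IFNγ replicate 2. For Smad6, with few counts, r was 0.49 (rho 0.66). It was 0.41 without the 2 libraries farthest from the median of Id3 and 0.36 without DMSO replicate 3 and IFNγ replicate 2. Bambi, which was barely counted, had r of 0.72 with Id3, and Smad7, Skil and Smad3 had r of -0.36, -0.51 and -0.03. Id2 and Id4 had r of -0.04 and 0.26 with Id3, and -0.45 and 0.41 without DMSO replicate 3 and IFNγ replicate 2. These are descriptions of 3 libraries a condition, in which deviations share their library, its depth and its scaling, and the values were chosen after they had been seen.

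**Figure D2:**
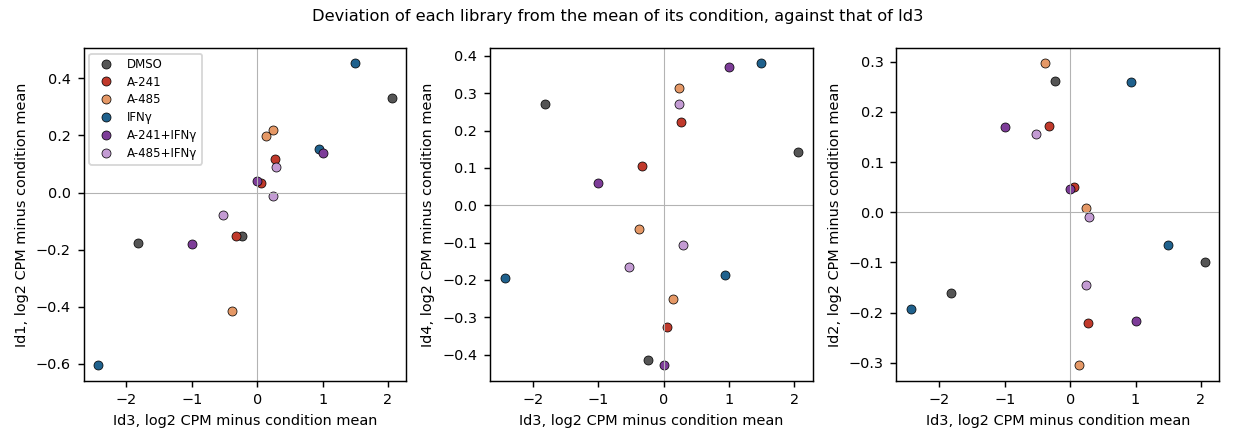
Deviation of each library from the mean of its condition in log2 CPM, for Id1, Id4 and Id2 (vertical axes) against Id3 (horizontal axis), with 1 point per library colored by condition. Id1 rises with Id3 (r of 0.86 over 18 libraries), while r was 0.26 for Id4 and -0.04 for Id2. Without DMSO replicate 3 and IFNγ replicate 2 these were 0.81, 0.41 and -0.45.

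Of the inhibitory SMADs, Smad7, on chromosome 18 of GRCm38 from 75367529 to 75395935, was lower with A-485. Its level was 10.1, 9.95 and 9.33 CPM with DMSO, 7.36, 5.81 and 5.90 CPM with A-241 and 5.47, 3.24 and 5.34 CPM with A-485. With IFNγ it was 5.53, 7.75 and 7.34 CPM, with A-241+IFNγ 5.44, 4.08 and 4.33 CPM and with A-485+IFNγ 2.49, 2.24 and 2.66 CPM. Libraries with either inhibitor were all below those of their controls, and the A-485+IFNγ libraries were below all others. In IFNγ-treated cells the level with A-485 was 2.74-fold lower (log2 fold change -1.45, standard error 0.25, 95% interval -1.97 to -0.93, edgeR adjusted p = 0.00674). This call was lost when any 1 of 5 of the 6 libraries was left out, the exception being IFNγ replicate 1 (highest adjusted p = 0.0439, without A-485+IFNγ replicate 1), and the change then stayed between -1.60 and -1.38. With A-485 against DMSO, Smad7 changed by -1.07 (standard error 0.23, edgeR adjusted p = 0.0214), and without DMSO replicate 3 and IFNγ replicate 2 it was -1.13 (0.00920). With A-241 its change was -0.63 (edgeR adjusted p = 0.0945) and, under IFNγ, -0.56 (0.172).

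Smad6 was counted at a low level, with 2 to 42 counts in a library. It was at 2.74, 3.00 and 2.07 CPM with DMSO, 0.421, 1.00 and 1.05 CPM with A-241 and 1.94, 1.34 and 1.63 CPM with A-485. With IFNγ it was at 5.16, 2.98 and 5.07 CPM, with A-241+IFNγ at 1.52, 1.3 and 1.03 CPM and with A-485+IFNγ at 4.59, 2.85 and 1.14 CPM. The A-241 libraries were below their controls in both settings. The log2 fold changes were -1.66 (standard error 0.49, edgeR adjusted p = 0.0438) against DMSO and -1.79 (standard error 0.42, edgeR adjusted p = 0.0140) under IFNγ, and neither passed. Without IFNγ replicate 2 the second was -1.97 (edgeR adjusted p = 0.00836). With A-485 the changes were -0.69 and -0.65 (edgeR adjusted p = 0.558 and 0.443), with 95% intervals of -1.62 to 0.24 and -1.47 to 0.16.

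Smad3, the transducer, was also low, with 3 to 36 counts in a library. It was at 3.37, 4.42 and 5.53 CPM with DMSO, 2.73, 1.60 and 0.632 CPM with A-241 and 2.47, 2.67 and 3.02 CPM with A-485. With IFNγ it was at 4.42, 4.17 and 3.67 CPM, with A-241+IFNγ at 0.653, 1.63 and 0.619 CPM and with A-485+IFNγ at 2.49, 1.83 and 2.47 CPM. Every inhibitor library again lay below every library of its control. In IFNγ-treated cells the level with A-241 was 3.996-fold lower (log2 fold change -1.999, standard error 0.42, 95% interval -2.89 to -1.10, edgeR adjusted p = 0.00660). This call was lost when any 1 of 5 of the 6 libraries was left out, the exception being A-241+IFNγ replicate 2 (highest adjusted p = 0.0414, without A-241+IFNγ replicate 1). Without both libraries that stood apart it held, at -1.99 (edgeR adjusted p = 0.00465). Against DMSO, A-241 gave -1.39 (standard error 0.40, edgeR adjusted p = 0.0408). With A-485 it was -0.69 (0.495) against DMSO and -0.85 (0.312) under IFNγ. Smad6 and Smad3 passed the filter on low counts through conditions other than A-241 and A-241+IFNγ, where they had at most 8 and 13 counts.

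Skil, which encodes the co-repressor, had the smallest change of the 8 genes in each of the 4 comparisons of an inhibitor with its control. The 18 libraries lay between 26.4 and 49.4 CPM, with means of 40.5 ± 7.76 CPM (SD, n = 3) for DMSO, 39.7 ± 5.03 CPM for A-241 and 37.1 ± 3.36 CPM for A-485. Under IFNγ the means were 34.7 ± 6.22, 29.5 ± 3.35 and 29.8 ± 4.605 CPM in the same order. The libraries of every inhibitor condition overlapped those of its control. The log2 fold changes with the inhibitors were between -0.23 and -0.02, and their 95% intervals together ran from -0.62 to 0.37.

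Bambi, on chromosome 18 from 3507923 to 3516404, was barely counted. The DMSO libraries had 1, 3 and 0 counts, the A-241 libraries 3, 0 and 3, and the A-485 libraries 5, 0 and 3. With IFNγ the counts were 45, 0 and 17, with A-241+IFNγ 1, 5 and 2, and with A-485+IFNγ 9, 3 and 7. The library with 0 counts among those with IFNγ was replicate 2, so that its condition spanned 0 to 5.53 CPM. With a library left out Bambi passed the filter, but only through the IFNγ libraries with 45 and 17 counts, so its fitted values are no support for a difference. In the 4 of those fits that tested it with A-241+IFNγ against IFNγ, the log2 fold change lay between -3.20 and -2.26 and 0 were called (edgeR adjusted p from 0.0114 to 0.311). With IFNγ replicate 2 and DMSO replicate 3 both left out, the adjusted p was 0.00286.

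**Figure D3:**
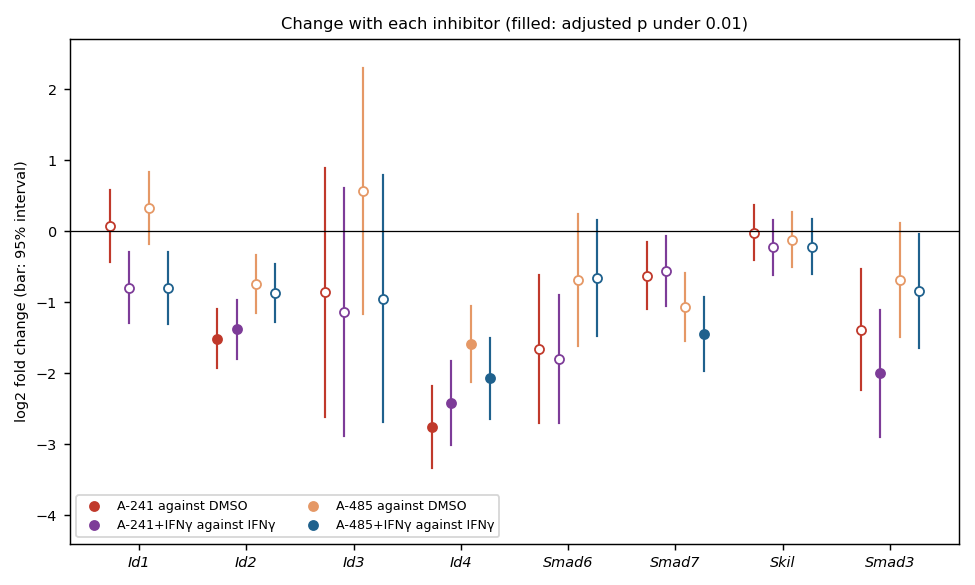
Log2 fold change of the 8 genes tested with each inhibitor, against DMSO or, with IFNγ, against IFNγ alone, with 95% intervals as bars and filled points for an adjusted p under 0.01 (edgeR). Id4 is filled in all 4 comparisons, Id2 in both with A-241, Smad3 and Smad7 in 1 each, and the intervals of Id3 are the widest.

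In each of the 4 inhibitor comparisons, 5 of the 8 genes had all inhibitor libraries below all control libraries. Over all genes tested, 13.4% did so for A-241 and 8.84% for A-485 against DMSO, and 12.1% and 10% for the same inhibitors under IFNγ. In 3 of the comparisons these were Id2, Id4, Smad6, Smad7 and Smad3, and with A-485+IFNγ Id1 was among them in place of Smad6. Smad6 and Smad3, which passed the filter through conditions other than A-241 and A-241+IFNγ, are part of these counts, and without them 3 of the other 6 genes did so in the first 3 comparisons and 4 of 6 with A-485+IFNγ. None of the 8 had all inhibitor libraries above the controls, which 13.3%, 7.07%, 11.7% and 10.6% of all genes had. The median log2 fold change of the 8 was -1.12 for A-241, -0.69 for A-485 and, under IFNγ, -1.26 and -0.86, beside medians over all genes of 0.01, -0.00, -0.02 and -0.03. Without Smad6 and Smad3 it was -0.74, -0.43, -0.97 and -0.91.

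IFNγ by itself called 0 of the 8 genes by edgeR, where 1.3% of all genes were called in either direction. DESeq2 and limma-voom also called 0, and 3 (Id2, Id4 and Smad7) had an unadjusted p under 0.05, as did 8.49% of all genes. For these 3 every IFNγ library was below every DMSO library, which 3.69% of all genes showed. Their log2 fold changes were -0.49, -0.83 and -0.53 (edgeR adjusted p = 0.404, 0.147 and 0.464). Id1 and Smad6 had values of 0.46 and 0.75 (edgeR adjusted p = 0.641 and 0.654), with overlapping libraries. In the presence of A-485, IFNγ was accompanied by a change of -1.31 in Id4 (standard error 0.27, edgeR adjusted p = 0.0212), and 0 of the 8 passed (0.802% of all genes did), with 4 at an unadjusted p under 0.05 (5.83% of all genes). DESeq2 called 1 there and limma-voom 0. In the presence of A-241, 0 passed as well (0.192% of all genes) and 1 had an unadjusted p under 0.05 (3.74% of all genes), with 0 called by DESeq2 and limma-voom.

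A test of whether the effect of an inhibitor differed between cells with and without IFNγ called 0 of the 8 for A-241 (0.0334% of all genes) and 0 for A-485 (0% of all genes) by edgeR, DESeq2 and limma-voom. Only Id1 had an unadjusted p under 0.05, as did 3.35% and 4.17% of all genes, with differences of -0.87 for A-241 and -1.13 for A-485 on the log2 scale. For Id4 the differences were 0.33 (95% interval -0.48 to 1.15) and -0.48 (95% interval -1.26 to 0.29).

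The inhibitors were given at different doses, 250 nM of A-241 and 1000 nM of A-485, and their names in the labels are codes, so levels are given side by side. Compared directly, 0 of the 8 genes were called between A-241 and A-485 without IFNγ (0.368% of all genes) and 0 with it (0.518%) by edgeR. An unadjusted p under 0.05 was found for 2 (Id2 and Id4) and 4 (Id2, Smad6, Smad7 and Smad3), against 8.15% and 6.5% of all genes. DESeq2 called 1 (Id2) and 0, and limma-voom 0 and 0. The values for Id4 were -1.16 (95% interval -1.74 to -0.59) without and -0.35 (-0.97 to 0.27) with IFNγ, lower with A-241. Smad7 went the other way, with 0.44 (95% interval -0.05 to 0.93) and 0.89 (0.36 to 1.43), and its A-241 libraries were above its A-485 libraries in both settings. Neither gene passed the adjusted threshold (edgeR adjusted p from 0.0564 to 1.00).

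Other genes of the pathway were taken from 7 lists with 127 symbols, of which 126 were in the table and 71 were tested. Against DMSO, 14 of the 71 were lower with A-241 and 3 with A-485, where 3.53% and 0.619% of all genes were. Under IFNγ, 13 were lower with the former and 2 with the latter, where 3.54% and 0.535% of all genes were. The same shares stand beside the counts of each list below. None was called higher by edgeR in these comparisons. Their median log2 fold changes were -0.37, -0.29, -0.47 and -0.35 in that order, beside 0.01, -0.00, -0.02 and -0.03 over all genes. The lists were drawn up with earlier results of these data known, and their counts are not independent evidence of a direction. Some genes called lower passed the filter on low counts only through conditions where they were higher, and are named with their lists. With at least 10 counts in every library 48 were tested, and 8 were called lower with A-241 in each setting. Over all genes 421 and 339 of 8783 were then called in either direction.

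Of the 8 ligand genes tested, 4 were called lower with A-241 against DMSO and 5 under IFNγ, beside 3.53% and 3.54% of all genes. Tgfb2, which encodes TGF-β2, was at 43.6, 34.4 and 39.7 CPM with DMSO, at 8.62, 7.61 and 10.1 CPM with A-241 and at 15.4, 13.6 and 18.4 CPM with A-485. It was lower with both inhibitors against DMSO, by -2.16 (edgeR adjusted p = 4.00e-07) and -1.32 (0.000304) on the log2 scale. Under IFNγ the change of Tgfb2 with A-241 was smaller, between -1.16 and -0.92 over the main fit and the alternatives. It was called lower, except in the fit of only the groups compared. Inhbb, which encodes the βB chain of activin and inhibin, was lower in all 4 comparisons, at -2.61 (A-241) and -2.50 (A-485) and, under IFNγ, at -2.01 and -1.86 (edgeR adjusted p from 2.23e-05 to 0.00314). The last call was lost without IFNγ replicate 1 or 3 or A-485+IFNγ replicate 1 or 3. Inhba, which encodes the βA chain, was lower with A-241, at -2.39 and, under IFNγ, at -2.24 (edgeR adjusted p = 0.000353 and 0.000503), and its values with A-485, -0.56 and -0.52, did not pass. The direct comparison of A-241 with A-485 gave -1.83 and, under IFNγ, -1.72, and did not pass either (edgeR adjusted p = 0.0167 and 0.0183). Gdf15 was lower with A-241 under IFNγ (log2 fold change -2.27, edgeR adjusted p = 0.00578), a call that was lost without IFNγ replicate 2 or any 1 of the A-241+IFNγ libraries. Tgfb3 was the remaining ligand called lower, with A-241 in both settings, and had under 50 counts on average, so that it fell outside the rule for named genes. It passed the filter on low counts through conditions other than A-241 and A-241+IFNγ, and is part of the ligand counts called lower.

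Of 9 receptor and co-receptor genes 1 was called, Rgma, a BMP co-receptor, which was lower with A-241 by -2.96 against DMSO and by -2.98 under IFNγ (edgeR adjusted p = 0.000772 and 0.00123). Without A-241+IFNγ replicate 2 the second had an adjusted p of 0.0107. Of the 11 transducing SMADs and nuclear partners 0 were called with an inhibitor by edgeR, and 5 (A-241) and 3 (A-485) had an unadjusted p under 0.05 against DMSO, and 5 and 4 under IFNγ, beside 23.2%, 12.3%, 20.2% and 14.7% of all genes. DESeq2 called 0 against DMSO and 1 with each inhibitor under IFNγ, and limma-voom called 0. Among 10 antagonists and latency proteins 2 were lower with A-241, Fst and Sostdc1, which encode secreted binders of activin and of BMPs. Fst stood at 35.6, 32.8 and 26.9 CPM with DMSO and at 2.103, 1.60 and 2.53 CPM with A-241 (log2 fold change -3.93, edgeR adjusted p = 1.80e-07). With A-485 its libraries held 18.7 to 19.4 CPM and the change was -0.75, which did not pass. Under IFNγ Fst held 37.0, 17.6 and 23.6 CPM without inhibitor and 4.57, 5.87 and 4.74 CPM with A-241. Its change with A-241 was smaller there, between -2.58 and -2.25 over the main fit and the alternatives. It was called lower, except in the fit of only the groups compared. Sostdc1 stood at 16.4, 13.3 and 12.8 CPM with DMSO and at 0.210, 1.00 and 1.26 CPM with A-241 (log2 fold change -4.06, edgeR adjusted p = 4.23e-07), where 1 to 6 counts were behind each value. With A-485 its libraries held 10.6 to 13.2 CPM, and A-241 against A-485 gave -3.84 (edgeR adjusted p = 9.07e-06). Sostdc1 passed the filter on low counts through conditions other than A-241 and A-241+IFNγ, and is part of the counts called lower. Fst with A-241 and Rgma with A-241+IFNγ likewise passed only through other conditions, and are part of those counts. Between the inhibitors, 2 of the 71 pathway genes were called lower with A-241 without IFNγ and 3 with it, against 0.368% and 0.518% of all genes in either direction.

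Of 12 feedback regulators inside the cell, 3 were lower with A-241 in both settings, and 1, Pmepa1, was lower with A-485 under IFNγ. Pmepa1, a target of TGF-β that retains its receptor-activated SMADs, held 419, 489 and 493 CPM with DMSO, 191, 211 and 215 CPM with A-241 and 317, 293 and 219 CPM with A-485. It was lower with A-241 by -1.18 (standard error 0.15, edgeR adjusted p = 0.000111) and, under IFNγ, by -1.31, and with A-485 under IFNγ by -1.03 (edgeR adjusted p = 0.00236), a call lost without IFNγ replicate 1 or any 1 of the A-485+IFNγ libraries. Nedd4l, a ubiquitin ligase of SMADs, was lower with A-241 by -0.89 (edgeR adjusted p = 0.00607) and, under IFNγ, by -1.32, and the first call was lost without any 1 of 5 of its 6 libraries, all but A-241 replicate 3. Ldlrad4, the other one called, had under 50 counts on average. It passed the filter on low counts through conditions other than A-241 and A-241+IFNγ, and is part of the counts of feedback regulators.

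Among 17 other known targets, Fn1 (fibronectin), Tgm2 (transglutaminase 2) and Hey1 (a repressor shared with Notch signaling) were lower with A-241, by -0.65, -1.73 and -2.06 against DMSO (edgeR adjusted p = 0.00784, 0.000135 and 0.00282). The calls of Fn1 and Hey1 were lost without any 1 of the A-241 libraries or DMSO replicate 2, and that of Fn1 without DMSO replicate 1 too. Tgm2 was also lower with A-485 than with DMSO (-1.69, edgeR adjusted p = 0.000830) and with A-241 under IFNγ (-2.38), and was higher with IFNγ than with DMSO (1.22, edgeR adjusted p = 0.00281), a call lost without DMSO replicate 2 or IFNγ replicate 3. Of 4 partners of the ID proteins tested, Tcf4, an E protein, was lower with A-241, by -0.93 (edgeR adjusted p = 0.000300) and, under IFNγ, by -0.72 (0.00260), where it was lost without IFNγ replicate 3 or A-241+IFNγ replicate 1 or 2. Ep300 and Crebbp, which encode P300 and CBP, were not called by edgeR in the fit of all libraries, where their values with A-241 were 0.47 (edgeR adjusted p = 0.0610) and 0.35 (0.146) against DMSO. With 2 surrogate variables both were called higher in that comparison, and Crebbp with A-241+IFNγ.

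**Figure D4:**
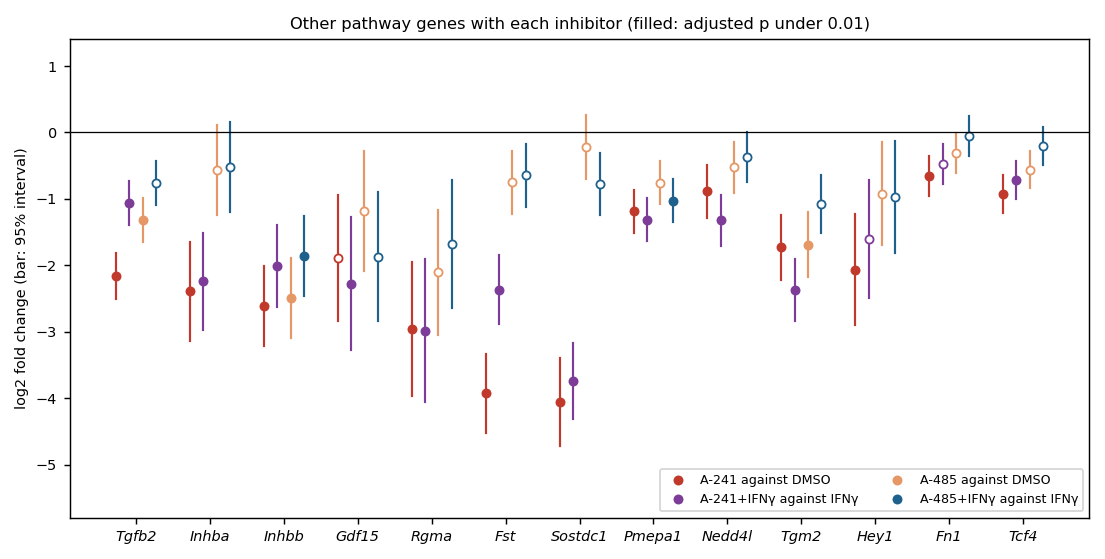
Log2 fold change with each inhibitor, with 95% intervals as bars, for the 13 other genes of the pathway that the rule names, with filled points for an adjusted p under 0.01 (edgeR) and all comparisons as in the plot of changes of the 8 genes. Fst and Sostdc1 lie near -4 with A-241 and above -1 with A-485 against DMSO, and Inhbb is filled in all 4 comparisons.

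The gene whose log2 CPM was most like that of a member over the 18 libraries was Ankrd1 for Id1 (Pearson r of 0.86), Trib2 for Id2 (0.98), Ampd2 for Id3 (0.96) and Fbxo32 for Id4 (0.96). For Smad6 it was Vegfc (0.90), for Smad7 Iffo2 (0.86), for Skil Cib2 (0.76) and for Smad3 Arhgef28 (0.93). Each is the highest value among all other genes tested, and the libraries share treatments and scaling, so these are descriptions.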

How the data were processed

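The authors deposited raw counts for each gene. They had trimmed single-end reads with cutadapt 1.7, aligned them to GRCm38 (mm10) with HISAT2 2.1.0 and counted them on exons with featureCounts, where reads over several genes counted for each and no strand option was stated. Genes were named with GENCODE vM21, which matched 97.3% of identifiers, and sequences came from RefSeq. The 9 genes and all lists were chosen with earlier results of these data known.

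Counts were tested with edgeR 4.0.16 in R 4.3.3. The function filterByExpr kept 11964 genes, TMM factors scaled the libraries, and glmQLFit and glmQLFTest were applied to all 18 libraries with a mean per condition, followed by Benjamini-Hochberg adjustment. Fold changes are fitted values, and the common biological coefficient of variation was 0.263. The method was tested on simulated data. Intervals and the limit of 3 counts cover counting error or spread between libraries only, as reads had no molecular identifiers. From each list the text names genes called with A-241, at most 4 by absolute change and with at least 50 counts in the higher group, besides the 9 genes, Ep300, Crebbp, 5 IFNγ targets and the most similar gene of each member. Same-numbered libraries deviated together (r over 0.1) in 15 of 45 pairs and were not treated as paired.

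Alternatives were DESeq2 1.42.0, limma-voom (limma 3.58.1), other filters and scalings, fits of only the groups compared, the replicate number as a block, an adjusted p under 0.05, 2 surrogate variables (sva 3.50.0), both libraries that stood apart left out, and each library left out in turn. The counts of other pathway genes were recomputed under them after the data were seen.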

Additional observations from a re-analysis of the deposited data

How the results depend on the processing

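No value of the 9 genes changed sign while called. Outside the fits that leave out 1 library, 879 of their values kept their side of the threshold, 42 gained a call and 14 lost one. Id4 with A-241 against DMSO was called under every alternative, with changes from -2.82 to -2.63. Fits of only the groups compared lowered the counts of genes called to 1 of the main 2 for A-241 (Id4), and to 0 of 1 for A-485, 0 of 3 for A-241+IFNγ and 0 of 2 for A-485+IFNγ. Over all genes they called 75, 0, 83 and 0. With 2 surrogate variables the counts were 4, 4, 6 and 3 with the inhibitors and 2 for IFNγ. They were 1 for IFNγ added to A-241, 3 for IFNγ added to A-485, 3 between the inhibitors and 1 between them under IFNγ. The count over all genes rose from 521, 79, 489, 66 and 156 to 2148, 765, 1544, 362 and 451 in the first 5 of these comparisons. In the others it was 124, 316, 569 and 302. Without DMSO replicate 3 and IFNγ replicate 2, 2, 3, 6 and 4 were called with the inhibitors, where 986, 298, 949 and 325 of 12135 genes were. The 6 include Bambi, which passed the filter there only through the IFNγ libraries left in and is no support for a difference. In this fit 1 was called for IFNγ added to A-485 and 1 between the inhibitors (main 0 for both), where 203 and 210 of all genes were. An adjusted p under 0.05 gave 4 with A-241, 2 with A-485 and 1 for IFNγ added to A-485, where 1085, 244 and 141 of 11964 genes passed. DESeq2 gave 3 with A-485, 1 for IFNγ added to A-485 and 1 between the inhibitors, and fits of only those groups gave 1 and 1 in these last comparisons. Over all genes DESeq2 called 242, 144 and 125, and those fits called 184 and 121. A minimum of 10 counts in every library gave 2 with A-485, and total counts gave 0, where 88 of 8783 and 63 of 11964 genes were called. With A-485+IFNγ, limma-voom, no filter, total counts and the replicate block each left 1, where 75, 80, 35 and 29 of all genes were called. The cause of these changes was not tested. Leaving out 1 library gave 2 genes each time with A-241, 0 to 1 with A-485, 2 to 4 with A-241+IFNγ, 0 to 2 with A-485+IFNγ and 0 in all other comparisons.

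Numbers of replicates did not pair the libraries (r from -0.80 to 0.48, and 3 of 18 libraries closest to their own number). With the replicate block, the call of Smad3 with A-241+IFNγ and that of Smad7 with A-485+IFNγ were lost, leaving 2 genes and 1, and 2 and 1 remained called with A-241 and A-485. Total counts in place of TMM moved the median of all genes by up to 0.13 (log2), to 0.12 with A-241 and 0.13 with A-241+IFNγ.

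For the 71 other pathway genes, the counts called were 14, 3, 13 and 2 with the inhibitors, in the same order, and 1 with IFNγ. Fits of only the groups compared gave 4, 0, 2, 0 and 0, and 2 surrogate variables 27, 15, 26, 11 and 5. Over all genes the former called 75, 0, 83, 0 and 19, and the latter 2148, 765, 1544, 362 and 451. At least 10 counts in every library gave 8 with A-241 and 8 with A-241+IFNγ, where 421 and 339 of 8783 genes were called. DESeq2 gave 6 with A-485, 7 with A-485+IFNγ and 3 with IFNγ, and an adjusted p under 0.05 gave 6, 5 and 2. Over all genes the counts were 242, 233 and 218 by DESeq2 and 244, 208 and 204 at that threshold. Without both libraries that stood apart 9, 22 and 13 were called with A-485, A-241+IFNγ and A-485+IFNγ, where 298, 949 and 325 of 12135 genes were. Total counts left 0 with A-485+IFNγ, where 35 of all genes were called. Leaving out 1 library gave 10 to 13 with A-241, 3 to 4 with A-485, 9 to 15 with A-241+IFNγ, 0 to 2 with A-485+IFNγ and 0 to 1 with IFNγ.

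Of the 9 genes, depth limits Bambi, Smad6 and Smad3 most, whose values with A-241 rest on 0 to 13 counts a library. Among other pathway genes, the largest count with A-241 alone was 6 for Sostdc1, 10 for Tgfb3, 12 for Fst, 13 for Ldlrad4, 20 for Inhbb and 24 for Rgma.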
